A study of Mus musculus with 8 samples.

Results

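Expression of 8 matrix proteoglycan genes, *Bgn*, *Dcn*, *Lum*, *Fmod*, *Ogn*, *Prelp*, *Vcan* and *Hspg2*, was examined in the distal colon of WT mice and of mice lacking *Hsf1*, before and after induction of colitis. The members were chosen by gene symbol, and all 8 were found among the 15859 genes of the count table and among the 14371 genes tested. Bulk RNA from polyadenylated transcripts was sequenced in 8 male mice, 2 in each of 4 groups, formed by genotype (WT or *Hsf1* null) and by day (0 or 15). All mice were BALB/c x 129SvEV, aged 10 weeks by their labels, and the null animals lacked *Hsf1* in every tissue, so that a difference between genotypes cannot be assigned to a cell type. Day 0 mice were untreated. Day 15 mice had received the carcinogen azoxymethane (AOM, 10 mg/kg) by injection and then dextran sulfate sodium (DSS, 1.5%), an agent toxic to the gut lining, for 5 days. The treatment text of the labels stops at the end of DSS, whereas titles and methods give day 15, the name used here. Day and treatment coincide in this design and cannot be told apart.

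Proteoglycans are core proteins that carry long, sulfated sugar chains (glycosaminoglycans) and fill the space between cells. Small leucine-rich proteoglycans, to which the first 6 genes belong, bind collagen and set the thickness and spacing of its fibrils. The class I members biglycan (*Bgn*) and decorin (*Dcn*) carry chondroitin or dermatan sulfate and also bind TGF-beta, and soluble biglycan can act through Toll-like receptors. The class II members lumican (*Lum*), fibromodulin (*Fmod*) and PRELP (*Prelp*) and the class III member osteoglycin (*Ogn*, also called mimecan) are keratan sulfate type or sparsely glycosylated. Versican (*Vcan*) is a large hyaluronan-binding proteoglycan of provisional matrix, and perlecan (*Hspg2*) is a heparan sulfate proteoglycan of basement membranes. In the gut wall these genes are known mainly from fibroblasts, and perlecan also from vessels and epithelium.

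The genes lie on 5 chromosomes, and several are neighbours (positions from GENCODE M21 on GRCm38, the assembly called mm10). *Dcn* (chr10:97479609-97518143) and *Lum* (chr10:97565128-97572703) are 47.0 kb apart. *Prelp* (chr1:133910304-133921414) and *Fmod* (chr1:134037254-134048277) are separated by 115.8 kb, with opticin (*Optc*) 2.3 kb from *Prelp*. *Ogn* (chr13:49608046-49624501) is 15.2 kb from osteomodulin (*Omd*), not analysed here, 40.5 kb from asporin (*Aspn*) and 75.3 kb from *Ecm2*. *Vcan* (chr13:89655312-89742509) lies next to the link protein gene *Hapln1* (chr13:89539796-89611652). *Bgn* is at chrX:73483602-73495933 and *Hspg2* at chr4:137468769-137570630.

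Promoters of 6 members, from 250 bases before to 50 after the start, were found in the RefSeq table for GRCm38.p6. Those of *Bgn* and *Ogn* are shown because these genes had the most different profiles over the 8 mice, as described below. Capitals mark matches to TATAAA on either strand.
*Bgn* promoter (chrX:73483351-73483650, plus strand): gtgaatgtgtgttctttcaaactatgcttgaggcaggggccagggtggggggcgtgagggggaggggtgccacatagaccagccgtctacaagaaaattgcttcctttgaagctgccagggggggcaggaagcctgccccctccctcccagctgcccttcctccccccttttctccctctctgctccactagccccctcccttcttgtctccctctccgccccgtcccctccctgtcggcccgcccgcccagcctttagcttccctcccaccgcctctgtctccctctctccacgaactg
*Ogn* promoter (chr13:49607765-49608064, plus strand): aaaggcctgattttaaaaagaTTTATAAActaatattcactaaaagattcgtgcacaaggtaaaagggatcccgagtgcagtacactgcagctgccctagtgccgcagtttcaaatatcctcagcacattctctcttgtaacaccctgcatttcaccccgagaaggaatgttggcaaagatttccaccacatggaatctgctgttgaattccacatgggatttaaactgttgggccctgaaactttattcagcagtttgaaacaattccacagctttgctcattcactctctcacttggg
The *Bgn* window was 63.7% G or C and the *Ogn* window 42.3%, against a median of 52.7% over 32817 promoters. The *Ogn* window held 2 overlapping TATAAA matches on opposite strands, starting at positions -229 and -227 from the transcription start, and the other 5 windows held none (13.6% of all promoters had a match). Paired heat shock units, GAANNTTC (7.86% of all promoters) or TTCNNGAA (8.51%), were not found in any of the 6 windows on either strand. Neither were the 3-unit heat shock elements (0.603%), which contain the paired forms, nor the AP-1 letters TGANTCA (7.81%).

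Total counts per mouse were 2553348 to 12440257, lowest in replicate 2 of WT day 0 and of *Hsf1* null day 0. Levels are given in CPM, the usual read count scaled to the TMM library size. *Hsf1* itself was measured at 36.5 to 50.4 CPM in the 4 WT mice and at 9.09 to 14 CPM in the 4 null mice, so that the genotypes did not overlap. Reads on *Hsf1* therefore remained in null mice. Replicates are different mice by their labels, and p-values measure the spread between such pairs. Across groups the members had between 8 and 14726 counts per mouse, with *Fmod* lowest (8 to 93 counts). Levels of the 8 genes in every mouse are plotted next.

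**Figure D1:**
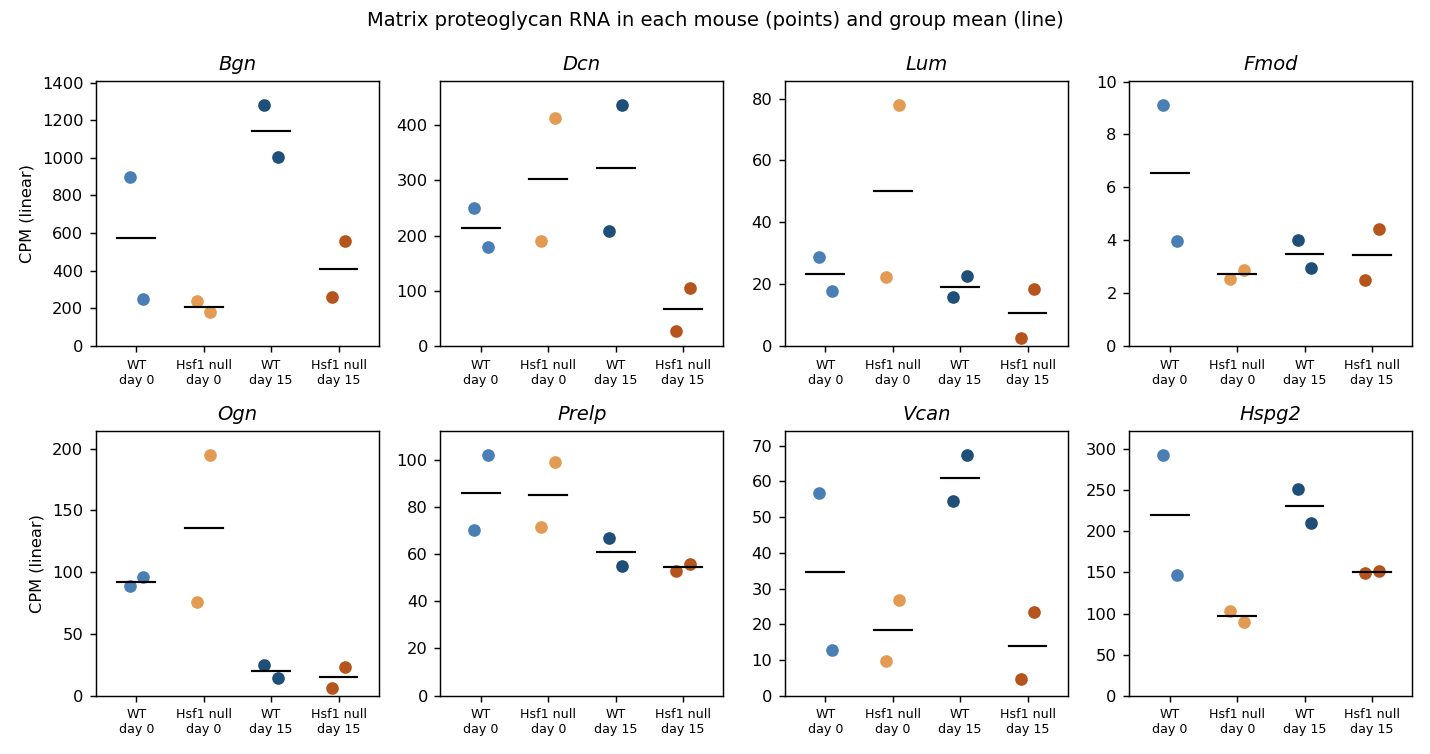
RNA level of each matrix proteoglycan in CPM (linear vertical axis from 0, scaled per gene) by group. Points are single mice (2 per group) and lines are group means. *Bgn* was at 1002.1 CPM or more in both WT mice at day 15 and at 560 CPM or less in both null mice, and *Ogn* was lower in all 4 mice at day 15 than in any mouse at day 0.

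Levels of different genes were compared after division by the length of the gene's exons (CPM per kb, mean ± SD, n = 2). That length joins the exons of all annotated transcripts. It was 6.099 kb from 8 transcripts for *Bgn*, 5.838 kb from 5 for *Dcn* and 2.566 kb from 1 for *Ogn*. A joined length can exceed that of the transcripts present. The order of genes, and the size of shares and ratios between genes, therefore depend on this choice. *Bgn* was the highest of the 8 in WT mice at day 15, at 187 ± 32.2 CPM per kb, followed by *Dcn* at 55.2 ± 27.5 CPM per kb, and the mice of these genes did not overlap. *Prelp* (16.8 ± 2.29 CPM per kb) and *Hspg2* (16.1 ± 2.0 CPM per kb) came next and could not be separated from each other, nor could *Lum* (7.85 ± 2.01 CPM per kb) and *Ogn* (7.67 ± 2.81 CPM per kb). *Vcan* (4.22 ± 0.628 CPM per kb) and *Fmod* (1.05 ± 0.223 CPM per kb) were lowest.

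The order differed between groups. In *Hsf1* null mice at day 0, *Ogn* (52.8 ± 32.7 CPM per kb), *Dcn* (51.6 ± 27.1 CPM per kb) and *Bgn* (34.4 ± 6.31 CPM per kb) overlapped, and *Bgn* came behind the other two. In WT mice at day 0 *Bgn* had the highest mean, 94.1 ± 75.4 CPM per kb, but its lower mouse (40.7 CPM per kb) was within the range of *Dcn* (36.7 ± 8.66 CPM per kb), which in turn overlapped *Ogn* (36.0 ± 2.03 CPM per kb). In *Hsf1* null mice at day 15 *Bgn* was again highest (67.1 ± 35.0 CPM per kb), above *Prelp* (15 ± 0.504 CPM per kb), while *Dcn* (11.3 ± 9.33 CPM per kb) spread on both sides of *Prelp*. *Fmod* and *Vcan* took the last 2 places in every group. *Bgn* thus made up 12.2% to 52.1% of the summed per-kb level of the 8 genes in the 4 mice at day 0 and 55.1% to 69.3% in the 4 mice at day 15.

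The comparison of genotypes at day 15 addressed whether matrix genes depend on *Hsf1* in the inflamed, premalignant colon. All 8 members had a higher fitted level in WT than in *Hsf1* null mice, as did 52.1% of all genes tested, with a median log2 fold change of 0.73 over the members against 0.04 over all genes. Versican, decorin and biglycan had the largest differences, 4.34-fold, 4.86-fold and 2.79-fold, but no member passed the threshold (edgeR adjusted p under 0.05 and absolute log2 fold change above 1), which 3.17% of all genes passed. At an unadjusted p under 0.05 there were 3 members, *Bgn*, *Dcn* and *Vcan*, beside 23.2% of all genes. DESeq2 called 2, *Bgn* and *Dcn*, beside 8.67% of the genes it tested. In bulk RNA, as here and below, fewer cells of a type and less RNA per cell cannot be told apart.

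*Bgn* was at 1280.3 and 1002.1 CPM in WT mice and at 258 and 560 CPM in null mice of day 15. Both WT mice were above both null mice. Its log2 fold change was 1.48 (SE 0.55, 95% interval 0.25 to 2.71, edgeR adjusted p = 0.148, DESeq2 adjusted p = 0.0221).

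*Dcn* was at 209 and 436 CPM in WT mice and at 27.6 and 105 CPM in *Hsf1* null mice, again without overlap. The log2 fold change was 2.28 (SE 0.61, 95% interval 0.92 to 3.65), with adjusted p = 0.0696 by edgeR and 0.000405 by DESeq2. Without replicate 2 of *Hsf1* null day 15 it passed the threshold in edgeR (log2 fold change 3.54, adjusted p = 0.0198), and in the other leave-one-out fits its adjusted p ran from 0.0596 to 0.3.

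*Vcan* was at 54.6 and 67.4 CPM in WT mice and at 4.65 and 23.3 CPM in *Hsf1* null mice, and the groups did not overlap. Its log2 fold change of 2.12 (SE 0.78, 95% interval 0.37 to 3.87) had an edgeR adjusted p of 0.147. *Hspg2*, at 251 and 210 CPM in WT mice and 149 and 152 CPM in null mice, was the fourth gene without overlap (log2 fold change 0.62, SE 0.31, edgeR adjusted p = 0.264). Absence of overlap was common in this comparison, at 54.8% of all genes, so 4 of 8 is close to the background.

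The remaining members overlapped between genotypes at day 15. *Lum* was at 15.7 and 22.7 CPM in WT mice and 2.64 and 18.4 CPM in null mice (log2 fold change 0.85, 95% interval -0.84 to 2.54). *Ogn* was at 24.8 and 14.6 CPM against 6.36 and 23.4 CPM (0.40, 95% interval -0.88 to 1.68), and this small difference turned to -0.25 without replicate 1 of *Hsf1* null day 15 and to -0.04 without replicate 1 of WT day 15. *Prelp*, an anchor between basement membrane and collagen, was at 66.7 and 55.0 CPM against 53.0 and 55.6 CPM (log2 fold change 0.16), and its 95% interval of -0.44 to 0.77 was the narrowest of the 8 in this comparison. *Fmod* was at 4.0 and 2.96 CPM against 2.48 and 4.41 CPM (log2 fold change 0.01, 95% interval -1.24 to 1.26).

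The mice of the *Hsf1* null day 15 group were unlike each other for 5 of the 8 genes. Replicate 1 was below replicate 2 by 2.69 log2 units for *Lum*, 2.26 for *Vcan*, 1.91 for *Dcn*, 1.84 for *Ogn* and 1.12 for *Bgn*, where the median absolute difference of all genes was 0.43. Differences of this size were at the 87th to 99th percentile of all genes, whereas *Prelp* (0.07 log2 units lower) and *Hspg2* (0.03 lower) were nearly equal. Without that mouse the log2 fold changes between genotypes at day 15 were 1.02 for *Bgn*, 1.61 for *Dcn*, 1.38 for *Vcan*, 0.05 for *Lum* and -0.25 for *Ogn*. Without replicate 2 instead they were 2.14, 3.54, 3.71, 2.86 and 1.63, of which that of *Dcn* passed the threshold.

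**Figure D2:**
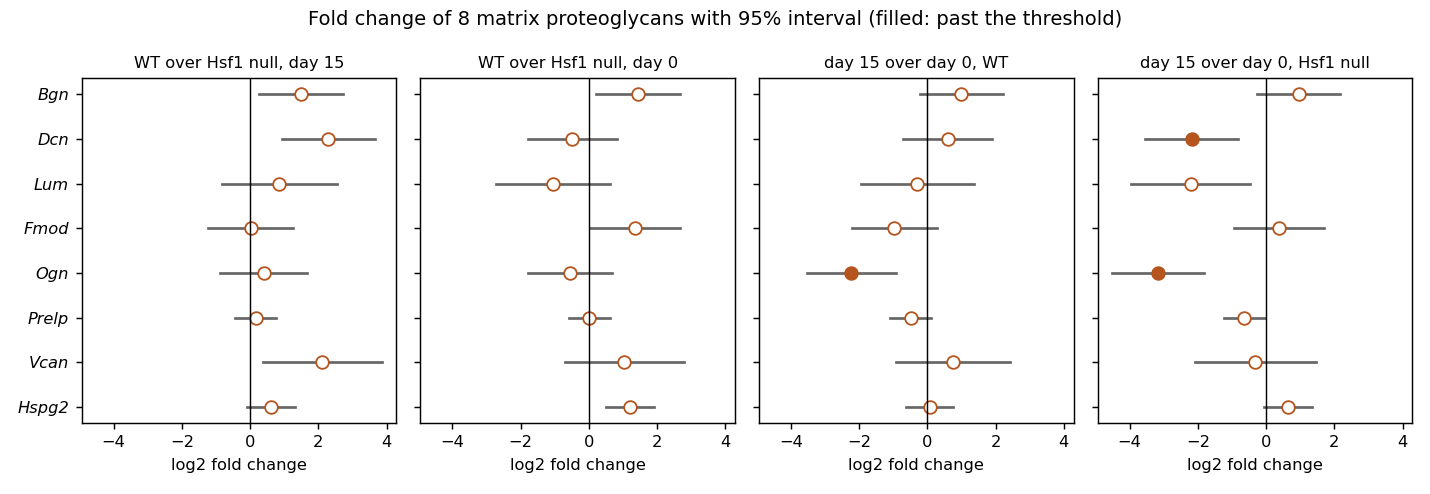
Fitted log2 fold change (horizontal axis) of each member in the 4 comparisons, with 95% intervals as lines, from the edgeR model of 8 mice. Filled points passed the threshold: *Ogn* at day 15 against day 0 in WT, and *Ogn* and *Dcn* at day 15 against day 0 in *Hsf1* null mice, all lower at day 15.

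Before treatment, no member differed between genotypes past the threshold by edgeR or DESeq2. No gene at all was called by edgeR at day 0 (0% of genes), and DESeq2 called 0.136% of those it tested. At an unadjusted p under 0.05 there were 3 members (6.29% of all genes), all higher in WT: *Hspg2*, *Bgn* and *Fmod*. These were also the 3 without overlap, against 37.1% of all genes.

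Perlecan, *Hspg2*, was at 293 and 147 CPM in WT mice and 103 and 89.8 CPM in untreated null mice, a log2 fold change of 1.2 (SE 0.32, edgeR adjusted p = 0.775) that was 0.61 without replicate 1 of WT day 0. *Bgn* was at 899 and 248 CPM in WT mice and 237 and 183 CPM in null mice. Its WT mice were 1.85 log2 units apart, and the log2 fold change of 1.45 (SE 0.55, edgeR adjusted p = 0.775) became 0.24 without replicate 1, the higher of them. *Fmod* was at 9.11 and 3.97 CPM against 2.54 and 2.87 CPM, on 8 to 93 counts per mouse, and its log2 fold change of 1.35 became 0.57 without replicate 1 of WT day 0. The other 5 genes overlapped: *Dcn* at 250 and 179 CPM in WT mice against 190 and 413 CPM in null mice, *Lum* at 28.7 and 17.9 against 22.3 and 77.9 CPM, *Ogn* at 88.6 and 96.0 against 76.2 and 195 CPM, *Prelp* at 70.0 and 102 against 71.3 and 99.1 CPM, and *Vcan* at 56.7 and 12.7 against 9.77 and 26.9 CPM. For *Dcn*, *Lum* and *Ogn* the higher null mouse was replicate 2, among the shallowest libraries.

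In WT mice, osteoglycin was the member that fell with AOM-DSS. *Ogn* went from 88.6 and 96.0 CPM at day 0 to 24.8 and 14.6 CPM at day 15, a 4.68-fold drop (log2 fold change -2.23, SE 0.58, edgeR adjusted p = 0.0453), and neither mouse at day 15 came near those at day 0. One call among 8 members stood beside 7.74% of all genes. The call sat close to the threshold: leaving out a single library gave adjusted p values of 0.0923 and 0.168 (WT day 0 replicates 1 and 2), 0.0522 and 0.054 (*Hsf1* null day 0 replicates 1 and 2), and 0.0709 and 0.225 (WT day 15 replicates 1 and 2), with log2 fold changes from -2.66 to -1.90, and it held without either *Hsf1* null mouse of day 15.

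*Bgn*, at 899 and 248 CPM before and 1280.3 and 1002.1 CPM after treatment, was higher at day 15 without overlap but did not pass the test (log2 fold change 0.99, SE 0.54, edgeR adjusted p = 0.269). The difference depended on the spread at day 0: it was 2.20 (adjusted p = 0.0518) without the higher day 0 mouse and 0.36 (adjusted p = 0.749) without the lower. *Prelp* was the third member without overlap (62.5% of all genes), at 70.0 and 102 CPM before and 66.7 and 55.0 CPM after treatment (log2 fold change -0.49, edgeR adjusted p = 0.27). The other 5 had fitted log2 fold changes between -0.97 for *Fmod* and 0.76 for *Vcan*, and their groups overlapped. Here too the day 0 mice weighed: without replicate 1 of WT day 0 *Vcan* was at 2.26 and *Fmod* at -0.19, and without replicate 2 at 0.12 and -1.37, none of them past the threshold. *Hspg2* was nearly level, with 0.06 (95% interval -0.63 to 0.75).

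In *Hsf1* null mice *Ogn* fell as well, and decorin fell with it, 2 calls among 8 members beside 11.8% of all genes. *Ogn* went from 76.2 and 195 CPM at day 0 to 6.36 and 23.4 CPM at day 15, an 8.97-fold drop (log2 fold change -3.16, SE 0.61, edgeR adjusted p = 0.0173). *Dcn* went from 190 and 413 CPM to 27.6 and 105 CPM, a 4.53-fold drop (log2 fold change -2.18, SE 0.61, edgeR adjusted p = 0.0445).

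Neighbouring *Lum* had a drop of similar size, from 22.3 and 77.9 CPM to 2.64 and 18.4 CPM (log2 fold change -2.21, SE 0.78), which did not pass (edgeR adjusted p = 0.0853). *Prelp*, at 71.3 and 99.1 CPM before and 53.0 and 55.6 CPM after, had a log2 fold change of -0.64 (edgeR adjusted p = 0.134). All 4 genes were lower in both day 15 mice than in either day 0 mouse. *Bgn* (237 and 183 CPM, then 258 and 560 CPM) and *Hspg2* (103 and 89.8 CPM, then 149 and 152 CPM) were instead higher in both day 15 mice, at log2 fold changes of 0.96 and 0.64 (edgeR adjusted p = 0.252 and 0.186). That made 6 of 8 members without overlap, where 61.3% of all genes had none. *Vcan* (-0.32) and *Fmod* (0.37) overlapped.

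These calls rested on few mice. Without replicate 2 of *Hsf1* null day 0, *Ogn* (log2 fold change -2.35, adjusted p = 0.164) and *Dcn* (-1.52, adjusted p = 0.315) were no longer called, nor was any other gene. Without replicate 1 of *Hsf1* null day 15, *Ogn* was at -2.51 (adjusted p = 0.051) and *Dcn* at -1.51 (adjusted p = 0.134), with 487 genes called in place of 1692. *Dcn* also missed the threshold without WT day 0 replicate 1 (adjusted p = 0.053) or 2 (0.0542), which enter through the shared estimate of spread. Without replicate 2 of *Hsf1* null day 15, *Lum* was called too (log2 fold change -4.21, adjusted p = 0.0488), whereas without replicate 2 of *Hsf1* null day 0 it was at -1.07 (adjusted p = 0.552) and without replicate 1 of *Hsf1* null day 15 at -1.40 (adjusted p = 0.225).

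Whether the response to AOM-DSS differed between genotypes was tested as an interaction, which shares all 4 groups with the comparisons above. No member was called by edgeR, 1 had an unadjusted p under 0.05, and over all genes these shares were 0.00696% and 8.61%. That member was *Dcn*, whose day 15 to day 0 change was 2.77 log2 units higher in WT than in null mice (SE 0.84, 95% interval 0.89 to 4.65, edgeR adjusted p = 0.43). Leaving out 1 library moved it between 2.10, without replicate 2 of *Hsf1* null day 0 or replicate 1 of *Hsf1* null day 15, and 4.03, without replicate 2 of *Hsf1* null day 15, with edgeR adjusted p from 0.0786 to 0.971. DESeq2 called *Dcn* alone among the members (log2 value 2.80, adjusted p = 0.0155), beside 1.15% of the genes it tested. *Dcn* was thus called as lower at day 15 in null mice and had a log2 fold change of 0.59 (95% interval -0.72 to 1.89) in WT mice, but the difference between these changes passed in DESeq2 and not in edgeR. For *Bgn* the interaction was 0.03 with an interval of -1.68 to 1.73, wide enough to hold a difference of 3-fold in either direction. For *Ogn* it was 0.94 (95% interval -0.84 to 2.72), so that the larger drop in null mice was not separated from that in WT mice.

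Ratios between members within a mouse do not depend on library size. Per kb, *Bgn* RNA was 4.27 and 1.09 times *Ogn* RNA in untreated WT mice and 1.31 and 0.395 times in untreated null mice. At day 15 the ratio was 21.7 and 28.9 in WT and 17.1 and 10.1 in null mice. Every day 15 mouse of either genotype was above every day 0 mouse, and at day 15 both WT mice were above both null mice. *Bgn* and *Ogn* are the members with the most different profiles over these same mice, and *Ogn* alone already separated the days.

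The ratio of *Bgn* to *Dcn* per kb was 3.44 and 1.33 in untreated WT, 1.2 and 0.424 in untreated null, 5.87 and 2.20 in treated WT, and 8.95 and 5.12 in treated null mice. In null mice the days did not overlap, and in WT mice they did. *Dcn* and *Ogn* were nearly equal per kb in all 4 day 0 mice, at ratios of 0.817 to 1.24. At day 15 the ratio was 3.70 and 13.2 in WT mice and 1.91 and 1.97 in null mice, above day 0 in each. These ratios were not tested. Between any 2 of the groups, with 2 mice against 2, the smallest two-sided exact permutation p is 0.333.

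**Figure D3:**
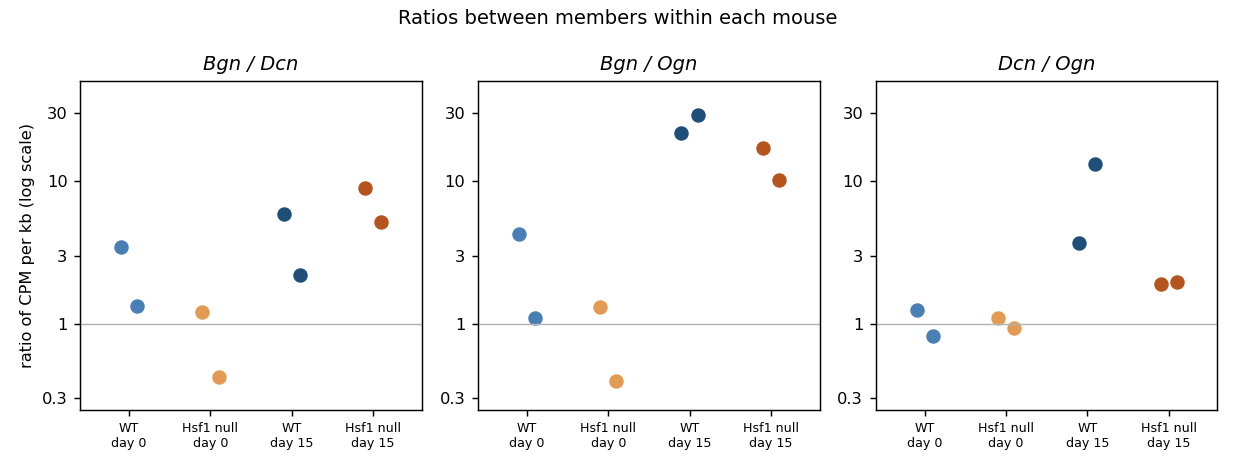
Ratios of CPM per kb between members within single mice (log vertical axis, 1 point per mouse) for *Bgn* over *Dcn*, *Bgn* over *Ogn* and *Dcn* over *Ogn*. The *Bgn* to *Ogn* ratio was 0.395 to 4.27 in the 4 mice at day 0 and 10.1 to 28.9 in the 4 mice at day 15.

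Likeness of profiles was measured as the root mean square difference of log2 CPM over the 8 mice, each gene centred on its own mean, against all genes with a mean of at least 10 CPM. The measure is a description, and the mice share groups and libraries. Among the members, *Fmod* and *Hspg2* were closest at 0.43 log2 units, both with small variation (SD 0.58 and 0.59), followed by *Dcn* and *Lum* at 0.56 (SD 1.26 and 1.32), *Lum* being 22nd of 10002 genes for *Dcn* and *Dcn* 9th for *Lum*. *Bgn* and *Ogn* were farthest apart at 2.14, with *Ogn* in place 9877 for *Bgn*. *Bgn* was closer to *Hspg2* (0.59) and *Vcan* (0.78) than to its class I relative *Dcn* (1.35).

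The nearest genes of any kind were *Eva1b* (0.23), *Phgdh*, an enzyme of serine synthesis (0.24), and *Fkbp10*, a collagen chaperone (0.27), for *Bgn*. *Colec12* (0.27), *Ackr3* (0.39) and *Thbd* (0.43) were nearest for *Dcn*, and *Mmrn1* (0.41), *Calcrl* (0.47) and *Ackr3* (0.50) for *Lum*. *Ogn* was nearest to the caveolin *Cav2* (0.18), to periostin, *Postn* (0.40), and to *Lrrc19* (0.44), and *Vcan* to *Ms4a6d* (0.31), the gap junction gene *Gja1* (0.39) and *Tlr13* (0.40). *Hspg2* was nearest to *Piezo1* (0.14), *Ptk7* (0.17) and *Slc39a13* (0.21), *Fmod* to *Tgfb3* (0.17), *Map6* and *Ptpn14* (both 0.24), and *Prelp*, which varied least (SD 0.37 log2 units against 1.64 for *Ogn*), to *Qsox2* (0.09), *Prpf18* and *Usp12* (both 0.11).

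Fibroblast markers moved with some of these genes. The summed level of 10 markers (*Pdgfra*, *Pdgfrb*, *Col1a1*, *Col1a2*, *Col3a1*, *Col6a1*, *Thy1*, *Dpt*, *Pi16* and *Cd34*, all detected in every mouse) was 2703 and 1010.6 CPM in untreated WT and 842 and 997 CPM in untreated null mice, and 2734.9 and 2314.1 CPM in treated WT and 595 and 1742.9 CPM in treated null mice. None of the 10 was called in any comparison, where at most 11.8% of all genes were. At day 15 all 10 were higher in WT than null mice by their fitted values (median log2 fold change 1.11), as were 52.1% of all genes.

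*Bgn* amounted to 46.8% and 43.3% of that sum in WT mice and to 43.4% and 32.1% in null mice at day 15. The genotypes overlapped in this share, with a much smaller gap than in the level of *Bgn* itself. At day 0 its share was 33.3% and 24.6% in WT mice and 28.2% and 18.3% in null mice. *Dcn* was at 7.64% and 18.8% of the sum in WT mice and at 4.64% and 6.0% in null mice at day 15, still without overlap. At day 0 the order was the reverse, with 9.25% and 17.7% in WT and 22.5% and 41.4% in null mice. *Ogn* was at 3.28% to 19.5% of the sum in the 4 mice at day 0 and at 0.629% to 1.34% in the 4 mice at day 15. *Vcan* was at 2.0% and 2.91% in WT mice against 0.782% and 1.33% in null mice at day 15. Other members were lower in WT than null mice there, without overlap. These were *Prelp* (2.44% and 2.38% against 8.92% and 3.19%), *Fmod* (0.146% and 0.128% against 0.417% and 0.253%) and *Ogn* (0.906% and 0.629% against 1.07% and 1.34%). *Hspg2* (9.17% and 9.09% against 25.1% and 8.72%) and *Lum* (0.575% and 0.981% against 0.443% and 1.06%) overlapped. The sum is weighted to abundant collagens, *Col1a1* alone making up 10.8% to 39.4% of it. The part of fibroblast content in the differences was not tested.

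**Figure D4:**
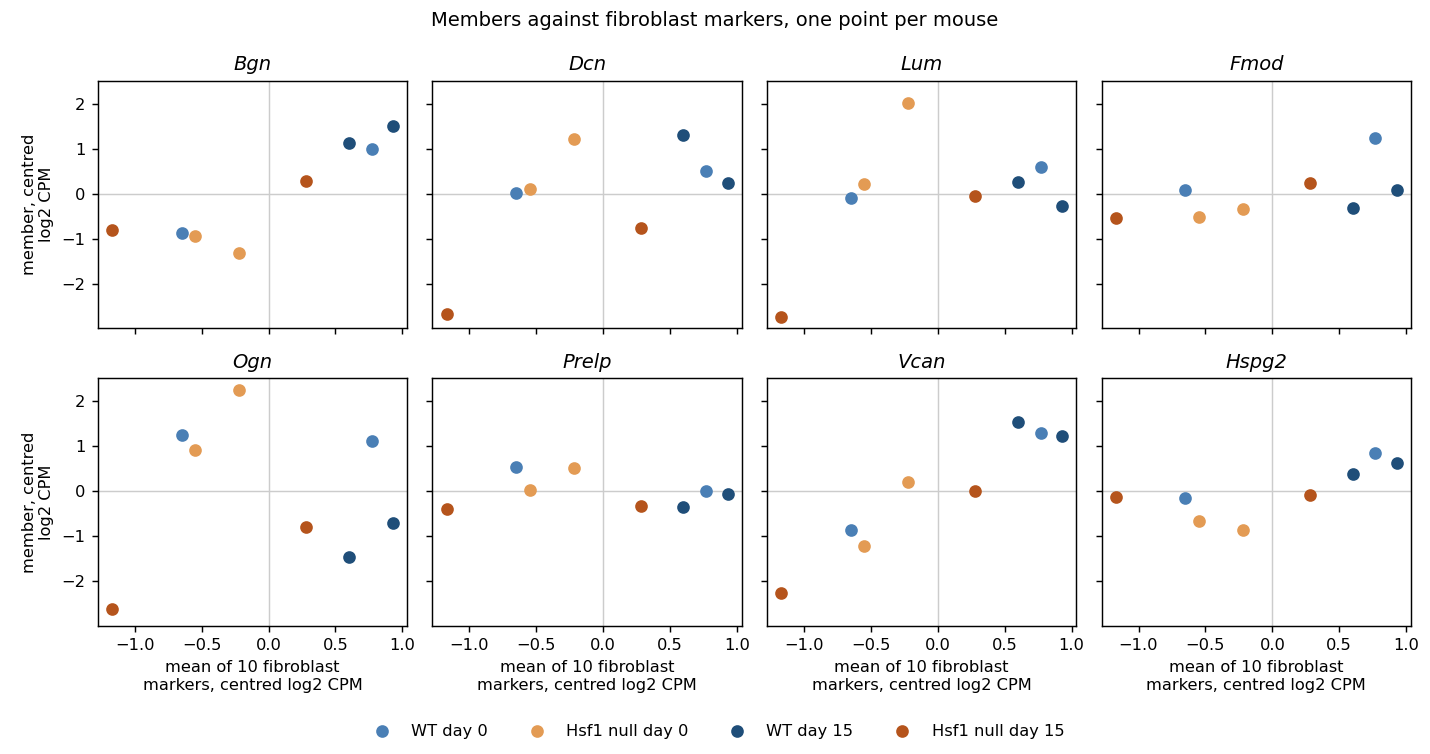
Log2 CPM of each member (vertical axis) against the mean log2 CPM of 10 fibroblast markers (horizontal axis), both centred on their mean over the 8 mice, 1 point per mouse and a colour per group. *Bgn* and *Vcan* were high in the 3 mice with the most marker RNA (both WT mice at day 15 and WT day 0 replicate 1), and *Ogn* was low in all 4 day 15 mice wherever the markers lay.

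Marker lists of other cell types differed between groups as well, with no marker of smooth muscle, endothelium, macrophages or epithelium at 0 in any mouse. Smooth muscle markers were at 7024.1 to 9980.1 CPM in the 4 untreated mice, at 3732.4 and 2164.0 CPM in treated WT and at 5422.1 and 6174.8 CPM in treated null animals, and between the days 6 of 10 fell in WT (median log2 fold change -1.68). In null mice none of the 10 was called and 8 had lower fitted values (median -0.47). The summed level of 2 pacemaker cell markers was 392 to 557 CPM in the 4 untreated mice, 119 and 84.5 CPM in treated WT and 227 and 142 CPM in treated null animals, and 2 of 2 fell in WT and 1 of 2 in null mice. *Ogn* was lower in the same 4 treated mice. Macrophage markers were at 415 and 956 CPM in null mice and 1577.8 and 2391.9 CPM in WT mice at day 15, where 2 of 9 were called higher in WT, and epithelial markers at 33713.0 and 27296.8 CPM against 16871.3 and 20266.0 CPM (0 of 10 called, all 10 lower in WT by their fitted values). Endothelial markers were at 98.7 and 188 CPM in null mice against 422 and 377 CPM in WT mice, with 2 of 8 called. Neutrophil markers were at 100 and 445 CPM in treated WT and 5.89 and 13.9 CPM in treated null animals (3 of 4 tested called higher in WT), and markers of B and plasma cells at 3249.4 and 3587.7 CPM against 231 and 465 CPM (2 of 6 called higher). Over all genes, 7.74% were called between the days in WT and 11.8% in null mice. Between genotypes at day 15, 3.17% of all genes were called and 52.1% had a higher fitted value in WT. Whether the shifts in markers had a part in the members' differences was not tested.

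Opticin (*Optc*), beside *Prelp*, fell at day 15 in both genotypes, by log2 fold changes of -2.99 in WT (edgeR adjusted p = 0.0103) and -2.92 in null mice (edgeR adjusted p = 0.0134). Its levels were 11.7 and 26.6 CPM in untreated WT and 23.8 and 33.4 CPM in untreated null animals, and 2.43, 2.22, 3.88 and 3.61 CPM in the 4 mice at day 15. Both class III genes measured, *Ogn* and *Optc*, were therefore lower at day 15 in each genotype. *Aspn*, of the *Ogn* cluster, fell in null mice (log2 fold change -2.25, edgeR adjusted p = 0.0436) and was at -1.40 in WT (edgeR adjusted p = 0.172), on 12 to 57 counts per mouse. *Ecm2*, of the same cluster, was at -2.26 in null mice (edgeR adjusted p = 0.0601) and -1.06 in WT mice (edgeR adjusted p = 0.333). None of the 5 noncanonical relatives tested (*Chad*, *Chadl*, *Podn*, *Podnl1* and *Tsku*) was called in any comparison. *Col18a1*, the collagen XVIII core of basement membranes, rose from 44.7 and 31.3 CPM to 482 and 269 CPM in WT mice (log2 fold change 3.29, edgeR adjusted p = 0.0103) and was 2.49 log2 units above null mice at day 15 (edgeR adjusted p = 0.0331). The third of that group, agrin (*Agrn*), had log2 fold changes between -0.24 and -0.10 in the 4 comparisons.

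The wider pathway was described through 176 other listed genes, of which 140 were tested. At day 15, 5 were higher and 4 lower in WT than in null mice (6.43%), 0 at day 0, and between the days 10 rose and 6 fell in WT (11.4%) and 8 rose and 6 fell in null mice (10%). The shares of all genes in the 4 comparisons were 3.17%, 0%, 7.74% and 11.8%. The interaction called 0 of the 140.

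Enzymes that cleave proteoglycan cores were among those higher in WT at day 15, 2 of 14 tested. *Adamts4*, a versicanase and aggrecanase, was at 15.7 and 24.8 CPM in WT mice and 1.71 and 0.535 CPM in null mice (log2 fold change 4.18, SE 0.82, edgeR adjusted p = 0.0315), and *Adamts1*, another versicanase, at 19.4 and 30.3 against 2.95 and 7.08 CPM (2.29, SE 0.53, edgeR adjusted p = 0.0492). Between the days in WT, *Mmp3* (log2 fold change 5.43), *Mmp7* (5.00), *Mmp13* (3.92) and *Adamts4* (3.86) rose, and none of the 14 was called in null mice. *Mmp3* and *Mmp13* rested largely on WT day 15 replicate 2, at 215 and 73.1 CPM against 14.3 and 7.22 CPM in replicate 1. The WT mice of day 0 had 2 and 0 counts of *Mmp7* and 21 and 0 counts of *Adamts4*. Fold changes from so few counts are imprecise.

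Among genes for making the sugar chains, *Chsy1*, a chondroitin synthase, was higher in WT at day 15 (17.2 and 25 against 4.65 and 7.08 CPM, log2 fold change 1.84, edgeR adjusted p = 0.0456), the single call among 13 genes of chondroitin and dermatan sulfate synthesis, and 0 of 19 for heparan sulfate and 0 of 9 for keratan sulfate were called there, beside 3.17% of all genes. *Chpf*, the partner of chondroitin synthases, rose at day 15 in both genotypes (log2 fold change 1.25 in WT and 1.36 in null mice), as did the heparan sulfotransferase *Hs3st1* (2.27 and 1.41). In sulfate supply, the transporter *Slc26a2* fell from 802 and 899 CPM to 110 and 87.5 CPM in WT mice (log2 fold change -3.11, edgeR adjusted p = 0.0076) and was 2.22 log2 units lower in WT than null mice at day 15, where the null mice were at 670 and 249 CPM. It is also known as an epithelial gene of the colon. *Slc35b3*, which carries activated sulfate into the Golgi, was lower in WT at day 15 too (log2 fold change -1.26, edgeR adjusted p = 0.0274).

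Of 16 receptors and partners, 0 were called between genotypes at day 15, beside 3.17% of all genes. Of 14 cell surface proteoglycans, 1 was called there, *Tgfbr3* (betaglycan, a TGF-beta co-receptor that is itself a proteoglycan). It was higher in WT, at 139 and 69.2 CPM against 26.4 and 32.7 CPM (log2 fold change 1.82, edgeR adjusted p = 0.0274). *Cd14* (1.53) and *Myd88* (1.37), of Toll-like receptor signalling, rose in WT between the days. *Tlr4* fell in null mice (-1.89) while *Tgfb1* rose (1.35). *Lyve1*, a hyaluronan receptor of lymphatic vessels, fell in null mice (-2.77), and the hyaluronan-binding *Itih5* fell in both genotypes (-2.16 in WT and -1.08 in null mice).

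Leaving out single libraries moved these counts widely. The 9 calls between genotypes at day 15 became 0 without either *Hsf1* null mouse of day 0 or without *Hsf1* null day 15 replicate 1, and 1 without WT day 15 replicate 2. The 16 calls in WT became 3 without WT day 0 replicate 2 and 1 without WT day 15 replicate 2, and the 14 in null mice became 0 without null day 0 replicate 2, 4 without null day 15 replicate 1 and 3 without null day 15 replicate 2. *Optc* was called in null mice without any single library except null day 0 replicate 2 and null day 15 replicate 2.

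**Figure D5:**
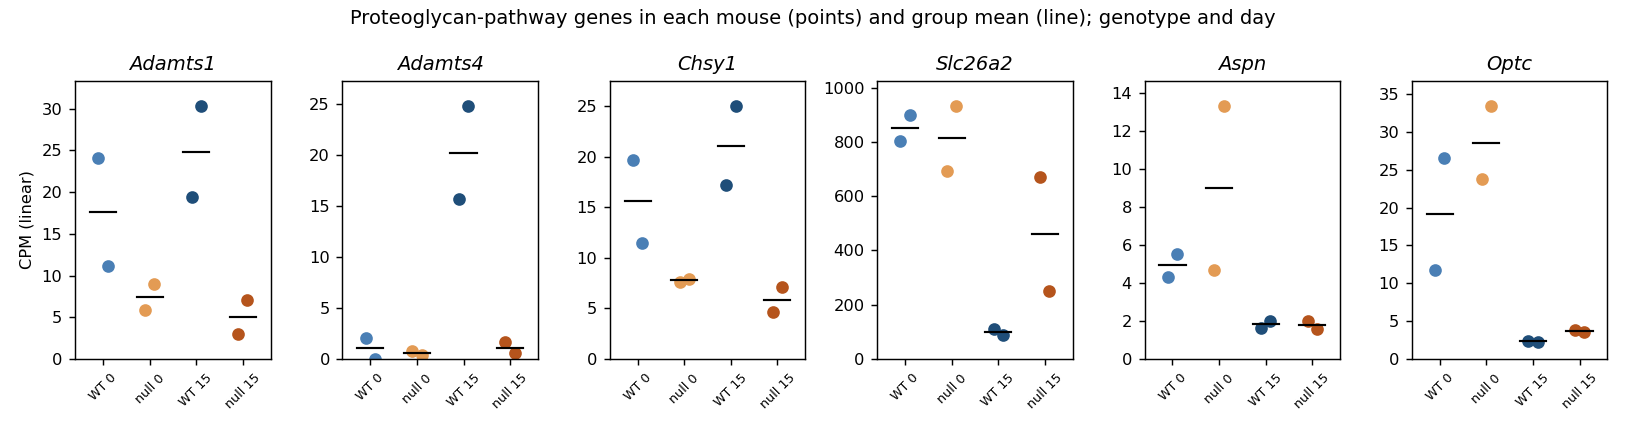
RNA level in CPM (linear vertical axis from 0, scaled per gene) of 6 genes of proteoglycan cleavage (*Adamts1*, *Adamts4*), synthesis (*Chsy1*), sulfate supply (*Slc26a2*) and the small leucine-rich family (*Aspn*, *Optc*), by genotype and day. Points are single mice and lines are group means, and *Adamts4* was above 15 CPM in both WT mice at day 15 and at 2.06 CPM or less in the other 6 mice.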

How the data were processed

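Samples were grouped by genotype, day and replicate number as given in the labels. Per the processing notes, STAR was used on mm10, and the authors deposited unnormalized read counts per gene symbol. The counting program, annotation and strand setting are not given in the sources used here, and 350 bases of *Prelp* exons overlap the antisense gene *Gm15851*. The table holds only genes with at least 6 counts in some sample. A second deposited table of the same counts, normalized with DESeq2, was not used.

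The tests used edgeR 4.0.16 (R 4.3.3): TMM normalization, 1 quasi-likelihood model of 4 groups over 8 samples, and genes with a mean normalized count above 5, two-sided with Benjamini-Hochberg adjustment over the 14371 genes of each comparison. Genes were called at an adjusted p below 0.05 with a log2 change of more than 1 in size, as in the study's methods. Intervals are 95%. The script was first tested on simulated data. Alternatives were DESeq2 1.42.0, its size factors in edgeR, other filters, no fold threshold, the compared groups alone, a replicate block and each library left out.

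The members, gene lists and tests were chosen with earlier results of these data known, and the lists support nothing independently. Named genes were the members, *Hsf1*, called genes of each list (at most 4 per direction) and the 3 genes nearest each member. Other genes in the text were chosen after their values were seen.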

Additional observations from a re-analysis of the deposited data

How the results depend on the processing

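With 2 mice a group and totals down to 2553348 counts, few calls were stable. Of 560 recomputed log2 fold changes of members, 512 kept their direction and side of the threshold, 29 changed sign, 13 lost the threshold and 6 gained it. DESeq2 called 2 members and 1197 genes between genotypes at day 15 (edgeR 0 and 455), 18 genes at day 0 (edgeR 0), 1737 genes between days in WT (edgeR 1112), and 1 member and 130 genes in the interaction (edgeR 0 and 1). Without a filter on low counts the interaction called 2 genes, and with only the compared groups in the fit, 6 genes were called at day 15. The cause was not tested for these.

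Samples with the same replicate number shared only that number (correlations of their deviations 0.14, 0.04, -0.29 and 0.15). A replicate block called 1 member at day 15 (*Dcn*), 0 members between days in WT (*Ogn*, -2.15, adjusted p = 0.0525 by edgeR) and 2 genes in the interaction. With the WT day 0 mice exchanged in the block, chosen after seeing the data, 1856 genes were called between days in WT. Near-zero values changed sign: *Prelp* at day 0 was 0.00 with DESeq2 size factors and -0.01 with DESeq2, and *Fmod* at day 15 was -0.01 with the compared groups alone and -0.02 with the block.

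Leaving out 1 library gave 0 to 1 members and 12 to 873 genes at day 15, 0 to 17 genes at day 0, 0 to 1 members and 92 to 1336 genes between days in WT, 0 to 3 members and 0 to 1891 genes in null mice, and 0 to 50 genes in the interaction. Log2 fold changes that crossed 0 ran, between genotypes at day 15, from -0.35 to 0.49 (*Fmod*) and -0.25 to 1.63 (*Ogn*). At day 0 they ran from -0.94 to 0.18 (*Dcn*), -1.72 to 0.08 (*Lum*), -1.08 to 0.28 (*Ogn*), -0.29 to 0.27 (*Prelp*) and -0.47 to 1.88 (*Vcan*). Between days they ran from -0.04 to 1.02 (*Dcn*), -0.59 to 0.1 (*Lum*) and -0.33 to 0.65 (*Hspg2*) in WT, and from -0.11 to 0.72 (*Fmod*) and -1.9 to 0.52 (*Vcan*) in null mice. In the interaction they ran from -0.61 to 1.24 (*Bgn*), -0.1 to 0.44 (*Prelp*) and -0.98 to 0.01 (*Hspg2*).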
